A study of Rattus norvegicus with 12 samples.

Results

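The regions described here are m6A-enriched stretches of the rat retinal transcriptome that lay over abundant RNA, judged by the coverage of the input library around them. Of the 12467 regions obtained by merging the peak lists of 6 retinas, 313 (2.51%) met the rule and are called members below. A member had a local input background over 3 times the genome-wide floor of its library in at least 3 of the 6 lists. The background is the input coverage that the peak caller expected at a summit, the highest of the floor and of averages over wider windows (1 kb and 10 kb, per the file headers). The floor is the coverage expected if the reads lay evenly over the 61.5 Mb given to the caller as genome size. Background divided by floor is called the background level, and the coverage of the immunoprecipitated (IP) library at the summit divided by the floor is called the IP level. Members were thus chosen by the background level, so its height is given as a description.

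N6-methyladenosine (m6A) is a methyl mark that a methyltransferase complex built around METTL3 and METTL14 places on adenosines while RNA is made. The demethylases FTO and ALKBH5 can remove it, and YTH-domain proteins bind marked RNA and influence its splicing, translation and decay. In the retina most cells are rod photoreceptors, so the RNA of the light-detecting machinery and the mitochondrial RNA that serves its high energy use are known as large parts of the RNA pool. An antibody enriches marked fragments, and the input shows how much RNA there was to start with, so an enriched summit over abundant RNA is read against a high background.

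The retinas came from male Sprague-Dawley rats, which the labels call WT and Diabetic. WT animals received citrate vehicle by intraperitoneal injection on 5 consecutive days and weighed 103.4, 110.5 and 106 g. Diabetic animals received streptozotocin, a toxin of the insulin-producing beta cell, at 60 mg/kg after a 12 h fast, on the same schedule, were counted as diabetic above a fasting blood glucose of 16.7 mmol/L a week after the last dose, and weighed 100.4, 102.5 and 104 g. All were otherwise unmodified animals, and whole-retina RNA cut to about 100 nt was used, with 3 IP lists per group and 6 input libraries that enter through the background. The time of dissection and the age are not given in the sources used here.

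The smaller library of each animal, which set the depth of its list, held between 8175227 and 12354616 reads, and the floors lay between 15.9 and 24.3 reads of coverage. In each list between 78.0 and 83.0% of regions had a background at the floor. Positions are 1-based and follow the peak files, which name no build. Neither do the labels, so regions carry no gene annotation here and no sequence is printed. For the same reason the retina label was not checked against marker genes. Whole tissue was used, and fewer cells of a type and less RNA per cell cannot be told apart in it.

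Members spanned a wide range of background levels, with most of them near the threshold and a few far above it. The median member had a background level of 4.39 (quartiles 3.49 and 7.03, taking the median over lists for each member). A level under 5 was found for 185 members and a level over 10 for 36, of which 12 exceeded 30. All 6 lists were over the threshold for 154 members, 5 lists for 46, 4 lists for 54 and exactly 3 lists for 59. In 8 members the lists over the threshold were all Diabetic, and in 3 they were all WT. In 4 of the 8 no WT list had a region, so their WT background is not known. The rest had to differ in background to some degree between the lists of each group that called them. The rule let them in through the group in which they were high.

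**Figure D1:**
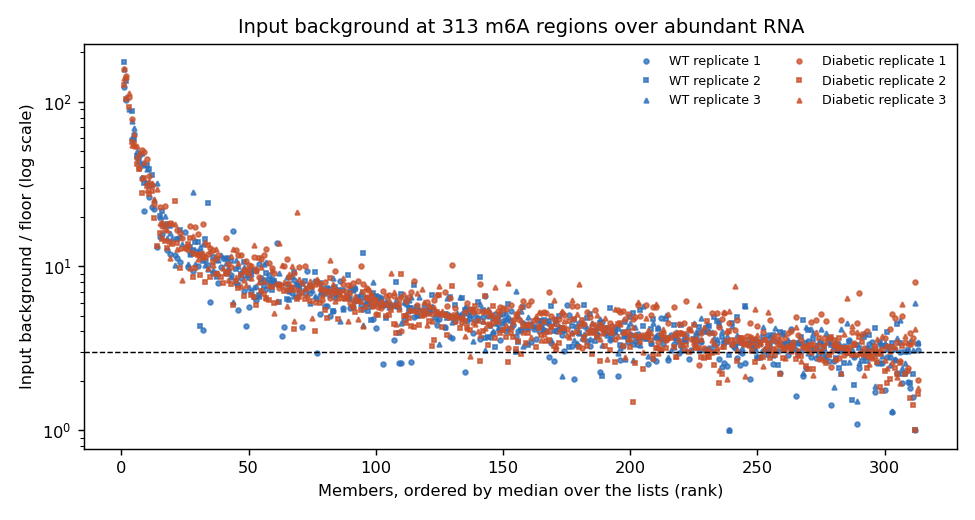
Background level (input background divided by the floor, log axis) of every member in each list that called it, with members ranked by their median over the lists; circles, squares and triangles are replicates 1, 2 and 3 (blue WT, orange Diabetic), and the dashed line is the threshold of 3. The curve falls from 149 to 2.56, and points of both groups are mixed along it.

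Members just inside the threshold and regions just outside it were close in value. The 3 members inside had a third-highest background level of 3.005 on chromosome 19 from 26062696 to 26063494, 3.005 on chromosome X from 10402636 to 10403228 and 3.01 on chromosome 13 from 110747575 to 110748429. The 3 regions just outside had 2.98 on chromosome 14 from 2331873 to 2332043, 2.97 on chromosome 6 from 108306364 to 108307575 and 2.97 on chromosome 5 from 144776071 to 144776624.

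The highest background of all lay under a pair of neighbouring regions on chromosome 4. The first, from 147836834 to 147837366, had background levels of 124, 174 and 159 in WT replicates 1, 2 and 3 and of 157, 127 and 140.2 in Diabetic replicates 1, 2 and 3. Its IP levels were 648, 459 and 580 in WT and 501, 444 and 421 in Diabetic animals, so the groups overlapped on both measures. The authors' fold enrichment, the ratio of IP coverage to background, lay between 2.64 and 5.24 there. The second, from 147837555 to 147837896, had background levels between 102 and 144 and fold enrichments between 1.40 and 1.72, among the weakest of any member. On the log2 scale the IP level differed between Diabetic and WT by -0.29 ± 0.18 (SE) in the first and by 0.25 ± 0.17 in the second (limma adjusted p = 0.564 and 0.645; n = 3 each), without a difference beyond the spread.

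The mitochondrial genome held 1 member, from 4566 to 4904. It was called in WT replicate 3, at a background level of 90.8, and in all Diabetic animals, at 106.5, 93.1 and 112.6. Its fold enrichments were 1.63 in that WT animal and 1.88, 2.04 and 1.62 in the Diabetic animals. WT replicates 1 and 2 had no call there, and their coverage at this site is not known from the lists. Mitochondrial RNA is copied from a small circular genome as long joined transcripts.

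The next members by background level formed a locus of 3 on chromosome 1 and lay on chromosomes 8, 10, 9 and 5. On chromosome 1 the members from 221154343 to 221154508, 221155053 to 221155383 and 221157017 to 221158377 had median background levels of 45.0, 46.5 and 61.4 over the lists. Their median fold enrichments were 2.82, 2.36 and 8.04, so the third had both the highest background and the highest fold enrichment. The chromosome 8 member from 116433313 to 116434302 had background levels of 54.5 to 88.4 and fold enrichments of 1.56 to 2.83. On chromosome 10 from 109620483 to 109620951 the background level was 27.7 to 51.1. On chromosome 9 from 16085930 to 16086544 it was 21.7 to 49.6, with fold enrichments of 7.33 to 12.9, and on chromosome 5 from 172981075 to 172981389 it was 29.1 to 44.8. None of these passed the test between groups on either measure.

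Typical fold enrichment of members was close to that of other regions. Over the members present in a list the median fold enrichment was 5.60, 5.08 and 5.48 in WT replicates 1, 2 and 3 and 4.63, 5.17 and 4.87 in Diabetic replicates 1, 2 and 3. The other regions had medians between 4.82 and 5.19. Low fold enrichments were more frequent among members. A fold enrichment under 2 was found in 5.02 to 10.5% of members per list and in 0.415 to 1.80% of other regions. The member with the highest median fold enrichment, named after its values were seen, was found at 14313376 to 14316247 of chromosome 16, with 14.3 to 81.5 over the 6 lists. Its background level was at or near the floor in WT replicates 1 and 2 and Diabetic replicate 2 and between 4.16 and 8.03 in the others, and its summits lay up to 944 bases apart. A median fold enrichment over 10 was reached by 71 of the 313 members. The share of other regions over 10 was not taken, so this count is not read as a trait of members. These values share pileup and background with the rule and are a description.

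Most members had no other member nearby, and 120 shared a locus. When members at most 10 kb apart were joined, the 313 formed 238 loci, of which 193 held 1 member, 28 held 2, 12 held 3 and 5 held 4 or more. Members of a locus can share windows from which the background was taken, and possibly a transcript, so they are not counted as independent. The largest locus, on chromosome 2 from 29675705 to 29689535, held 8 members with median background levels of 3.76 to 8.74 and median fold enrichments of 1.74 to 10.3. A locus of 7 on chromosome 16 from 81153501 to 81170248 had lower backgrounds, 3.02 to 5.26, and stronger enrichment, 5.55 to 19.7. A locus of 5 on chromosome 5 from 15051296 to 15059984 combined 6.27 to 11.9 with fold enrichments of 5.25 to 20.2. The remaining 2 of the 5 lay on chromosome 20 from 7931731 to 7942249 and chromosome 7 from 120761193 to 120766830, each with 4 members.

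Distance to the nearest other m6A region, member or not, had a median of 2070 bases for members and of 5723.5 bases for the 9324 other regions found in at least 3 lists. Members were found on 23 chromosomes or contigs. Their share was 2.51% of all regions, 5.86% on chromosome X (18 of 307), 4.76% on chromosome 20 (18 of 378) and 3.99% on chromosome 16 (16 of 401). It was 0.969% on chromosome 17 (4 of 413) and 1.18% on chromosome 15 (4 of 338). No test was made of these shares.

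Members were wider than the other regions and more often had several summits. The median width of the called regions inside members was 403, 395 and 433 bases in WT replicates 1, 2 and 3 and 372, 421 and 404 bases in Diabetic replicates 1, 2 and 3. For all other regions it was 279, 277 and 302 bases in WT and 294, 294 and 289 bases in Diabetic animals. Members were thus wider in every list, by a mean of 115.5 ± 19.3 bases (SD, n = 6 lists; exact two-sided sign-flip permutation p = 0.031, the smallest possible for 6 lists). Regions with several summits made up 43.8% ± 2.55 of members and 32.1% ± 1.12 of the others, a difference of 11.7 ± 2.15 percentage points in the same direction in 6 of 6 lists (SD, n = 6; exact two-sided sign-flip permutation p = 0.031). The other regions include those found in fewer than 3 lists, whereas members had to be found in at least 3. After merging over lists, the median width was 472 bases for members. It was 361 bases for the 9324 other regions found in at least 3 lists, a difference that was not tested. Width and summit number did not enter the rule. The IP level took part through the calling of regions and the choice of summit. It was higher in members, with medians of 25.1 to 29.5 per list against 5.30 to 5.73 in the others. Its part in the width was not tested.

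**Figure D2:**
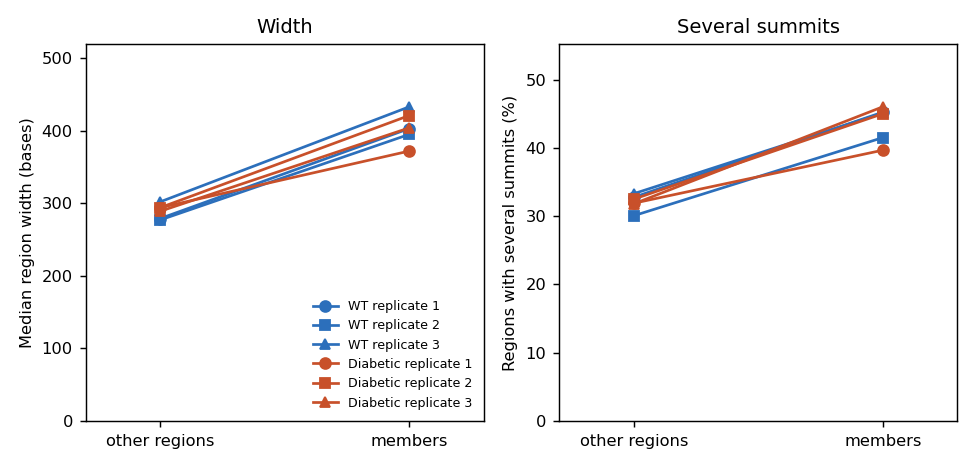
Median width of called regions in bases (left) and percentage of regions with several summits (right) for other regions and members, 1 line per list (blue WT, orange Diabetic; marker shape gives the replicate). Every line rises from the other regions to the members, in width from between 277 and 302 to between 372 and 433 bases.

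The widest members held many summits. The widest, on chromosome 15 from 47378703 to 47382257, measured 3555 bases and had a median of 10 summits over the lists, with fold enrichments of 8.48 to 14.8. It was followed by 3020 bases on chromosome 6 from 23338683 to 23341702, with a median of 7 summits and fold enrichments of 17.8 to 25.8. The third, on chromosome 16 from 10278001 to 10280884, had 2884 bases and a median of 8 summits. Its background level of 11.2 to 16.6 was above that of the wider pair, where it was 2.20 to 4.74. In all 3 the IP level differed between groups by at most 0.14 on the log2 scale (limma adjusted p from 0.828 to 0.984).

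The strongest summit of most members lay at nearly the same position in every animal. Of the 254 members with a region in all 6 lists, 203 (79.9%) had all 6 summits within 100 bases, against 83.3% of the 6844 other regions of all 6 lists. Members with a region in 5, 4 and 3 lists numbered 14, 25 and 20. The share in all 6 lists was 81.2% of members and 73.4% of the other regions found in at least 3 lists.

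The number of members with a region and the number over the threshold overlapped between WT and Diabetic lists. Both enter the rule, so they are given as a description. WT lists held 299, 264 and 292 members and Diabetic lists 292, 303 and 304, with means of 285 ± 18.5 and 299.7 ± 6.66 (SD over 3 lists). WT replicate 2 lacked 49 members, the most of any list, and without it the difference of 14.7 members fell to 4.17. The number of members over 3 times the floor was 236, 244 and 267 in WT and 282, 246 and 272 in Diabetic lists, a difference of 17.7 in the means. Without Diabetic replicate 1, the list with the most, it was 10. Without Diabetic replicate 2 it was 28, and without WT replicates 1 and 3 it was 11.2 and 26.7. Member widths, as medians per list, averaged 410.3 ± 20.0 bases in WT and 399 ± 24.9 bases in Diabetic lists (SD over 3 lists; exact two-sided permutation p = 0.6, where 3 against 3 cannot go below 0.1).

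In 4 members (1.28%) no WT list had a region, while all Diabetic lists had, a share close to the 1.42% of all 9637 regions found in at least 3 lists. Their positions were chr2:29687071-29687316, chr3:152973095-152973251, chr8:32318055-32318218 and chr9:94974207-94974366. Their fold enrichments were 1.56 to 2.05, 2.37 to 3.005, 2.09 to 3.30 and 1.85 to 2.11. Their background levels were 4.24 to 5.31, 6.35 to 7.05, 4.97 to 7.24 and 5.43 to 9.06. The first is 1 of the 8 members of the chromosome 2 locus, whose other 7 were called in all 6 lists. No member was called in all WT lists and in no Diabetic list, against 0.259% of those regions. The background at these sites in WT animals is not known, and the rule asks for 3 lists, so a member absent from WT must be present in every Diabetic list.

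The background level, the measure of RNA abundance by which members were chosen, gave no member that passed the test between groups. Since the rule used these values, the comparison is a description and does not show that RNA abundance was unchanged. A background also cannot fall below the floor, so lower values are not seen. It was compared with limma over the 697 regions of all 6 lists whose mean background was at least 1.5 times the floor, which include 254 members. After Benjamini-Hochberg adjustment 0 of the 697 passed in either direction (0% higher and 0% lower), and the smallest adjusted p was 0.130. At an unadjusted p under 0.05, 11 members were higher in Diabetic animals and 4 lower (4.33% and 1.57%), against 3.73% and 1.58% of all regions fitted, or 15 members (5.91%) against 5.31% in either direction. The median difference, Diabetic minus WT on the log2 scale, was 0.05 for members and 0.05 for all fitted, and it was above 0 in 56.3% of members and 57.4% of all. The difference was under 0.5 in size for 231 of the 254 members, with a median SE of 0.23.

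The member with the smallest p lay on chromosome X from 23222213 to 23222712. Its background level was 1.00, 2.89 and 1.00 in WT replicates 1, 2 and 3 and 4.51, 4.04 and 5.35 in Diabetic replicates 1, 2 and 3. All Diabetic values were above all WT values, 2 of which were at the floor. It entered the rule through the Diabetic lists alone and so had to be higher there, and its log2 difference of 1.69 ± 0.36 (SE, n = 3 each) is a description. The strongest summits of this region lay up to 291 bases apart in the 6 lists. Without WT replicate 2 it was the single call of the background test in the alternatives run.

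The other members with the smallest unadjusted p entered the rule in different ways. On chromosome 6 from 108307895 to 108308162 the background level was 1.94, 2.20 and 2.39 in WT and 4.97, 3.28 and 5.89 in Diabetic replicates, over the threshold in Diabetic lists alone (log2 difference 1.08 ± 0.25 SE, a description for that reason). On chromosome 18 from 59190064 to 59190812 it was 1.10, 3.32 and 1.51 against 4.51, 2.87 and 3.99, and on chromosome 10 from 35804974 to 35805337 it was 1.29, 3.39 and 1.32 against 5.08, 3.23 and 2.59. In both, WT replicate 2 lay within the Diabetic range, so the groups overlapped. Among those lower in Diabetic animals, the member on chromosome 1 from 214280503 to 214280918 had 3.01, 3.39 and 4.73 in WT and 2.66, 2.56 and 1.93 in Diabetic replicates (log2 difference -0.62 ± 0.24 SE), over the threshold in WT lists alone, so that this too is a description. Background levels on chromosome 3 from 159308172 to 159308447 were 3.70 to 5.75 in WT and 2.36 to 3.81 in Diabetic animals. On chromosome 15 from 28553950 to 28554621 they were 5.68 to 7.97 and 3.89 to 5.78, and on chromosome 16 from 81153501 to 81154438 they were 5.38 to 6.65 and 3.28 to 5.14.

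The IP level, the coverage of m6A-enriched RNA at the summit, passed the test in 8 members, 5 higher and 3 lower in Diabetic retinas. It was compared with limma over all 7098 regions of all 6 lists, of which 48 (0.676%) were called higher and 13 (0.183%) lower. The 5 and 3 members are 1.97% and 1.18% of the 254 members fitted. Of these 8, 2 were over the threshold in lists of 1 group alone, on chromosomes X and 7, and are given as a description. Among the 248 members over it in both groups, 4 (1.61%) were called higher and 2 (0.806%) lower. Of these, the members on chromosomes 14, 17 and 20 were over it in all 6 lists. Those on chromosomes 9 and 18 were over it in 2 WT and 3 Diabetic lists, and that on chromosome 8 in 2 WT and 1 Diabetic list. The IP library also takes part in the calling of regions and the choice of summit, so this split does not remove the effect of the selection. IP coverage reflects both how much RNA there is and how much of it is marked, so the background level is given beside each. At an unadjusted p under 0.05, 31 members (12.2%) were higher and 25 (9.84%) lower, against 8.13% and 2.73% of all regions. The median log2 difference was 0.02 for members and 0.08 for all regions, and it was above 0 in 53.1% of members and 63.7% of all.

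The largest rise was on chromosome 17 from 76560003 to 76560449. Its IP level was 12.6, 18.1 and 20.8 in WT replicates 1, 2 and 3 and 22.6, 47.2 and 39.6 in Diabetic replicates 1, 2 and 3. The groups did not overlap, and the log2 difference was 1.05 ± 0.18 (SE, n = 3 each; limma adjusted p = 5.16e-06). This SE, like those of the other IP levels, rests on the spread pooled over the regions fitted. The IP level of this member averaged 17.2 ± 4.19 in WT and 36.5 ± 12.6 in Diabetic animals (SD, n = 3 each). Its background level was 4.99, 7.28 and 6.63 in WT and 6.36, 8.50 and 10.9 in Diabetic animals, overlapping, with a log2 difference of 0.43 ± 0.24. This was the member least sensitive to other choices, called in 8 of 10 alternatives. It was lost when libraries were centred on their medians (adjusted p = 0.132) and without WT replicate 3 (adjusted p = 0.0579).

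The chromosome X member described above, chosen through the Diabetic lists alone, had IP levels of 5.43, 8.18 and 5.29 in WT and 10.5, 13.1 and 10.3 in Diabetic replicates. The log2 difference was 0.86 ± 0.20 (SE), beside the larger difference of 1.69 in its background. Chromosome 18 from 18079442 to 18079934 had IP levels of 6.57, 8.88 and 8.61 in WT and 15.3, 12.2 and 11.7 in Diabetic animals, and its background level moved by about as much, from 2.67, 3.32 and 3.17 to 5.26, 4.51 and 4.45 (log2 differences 0.71 ± 0.20 and 0.64 ± 0.20 SE; limma adjusted p = 0.0424 and 0.816). In both, every Diabetic value was above every WT value on both measures.

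On chromosome 14 from 38162290 to 38162594 the IP level was 26.1, 33.0 and 22.2 in WT and 52.3, 35.3 and 43.4 in Diabetic animals, without overlap (log2 difference 0.69 ± 0.18 SE; limma adjusted p = 0.0175). Its background level overlapped, at 3.20 to 5.12 in WT and 3.63 to 7.41 in Diabetic animals. On chromosome 9 from 93374305 to 93374540 the IP level was 9.25, 11.2 and 13.5 in WT and 23.1, 12.9 and 19.9 in Diabetic animals (log2 difference 0.69 ± 0.19 SE; limma adjusted p = 0.0329). Here Diabetic replicate 2 lay below WT replicate 3, so the groups overlapped although the member was called. Its background level was 2.63, 3.64 and 3.75 in WT and 5.66, 3.17 and 5.89 in Diabetic animals, also overlapping (log2 difference 0.52 ± 0.27 SE).

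Of the 3 members called lower, chromosome 7 from 141366177 to 141366643 was over the threshold in the WT lists alone and so had to have a higher background there. Its IP level was 11.6, 9.99 and 11.6 in WT and 7.21, 6.32 and 5.18 in Diabetic replicates, a log2 difference of -0.84 ± 0.20 (SE). The background level was 3.10, 3.36 and 3.46 in WT and 2.02, 1.67 and 1.81 in Diabetic animals, a log2 difference of -0.85 ± 0.20. Fold enrichment overlapped, at 2.93 to 3.68 in WT and 2.82 to 3.69 in Diabetic animals.

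On chromosome 8 from 51810474 to 51810763 the IP level was 14.8, 27.5 and 32.7 in WT and 22.5, 11.9 and 12.0 in Diabetic animals (log2 difference -0.68 ± 0.18 SE; limma adjusted p = 0.0307). WT replicate 1 lay within the Diabetic range, and the member before it, which ends 348 bases from its start (51809265 to 51810126), differed by -0.60 ± 0.19 with an adjusted p of 0.101. The background level of the called member was 2.71, 4.52 and 4.39 in WT and 4.28, 1.95 and 2.35 in Diabetic animals, overlapping (log2 difference -0.49 ± 0.31 SE). On chromosome 20 from 7931731 to 7932080 the IP level was 60.1, 31.0 and 38.9 in WT and 29.4, 27.3 and 23.9 in Diabetic animals, without overlap (log2 difference -0.64 ± 0.18 SE; limma adjusted p = 0.0391). Its background level was 6.46 to 8.78 in WT and 4.65 to 7.69 in Diabetic animals.

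**Figure D3:**
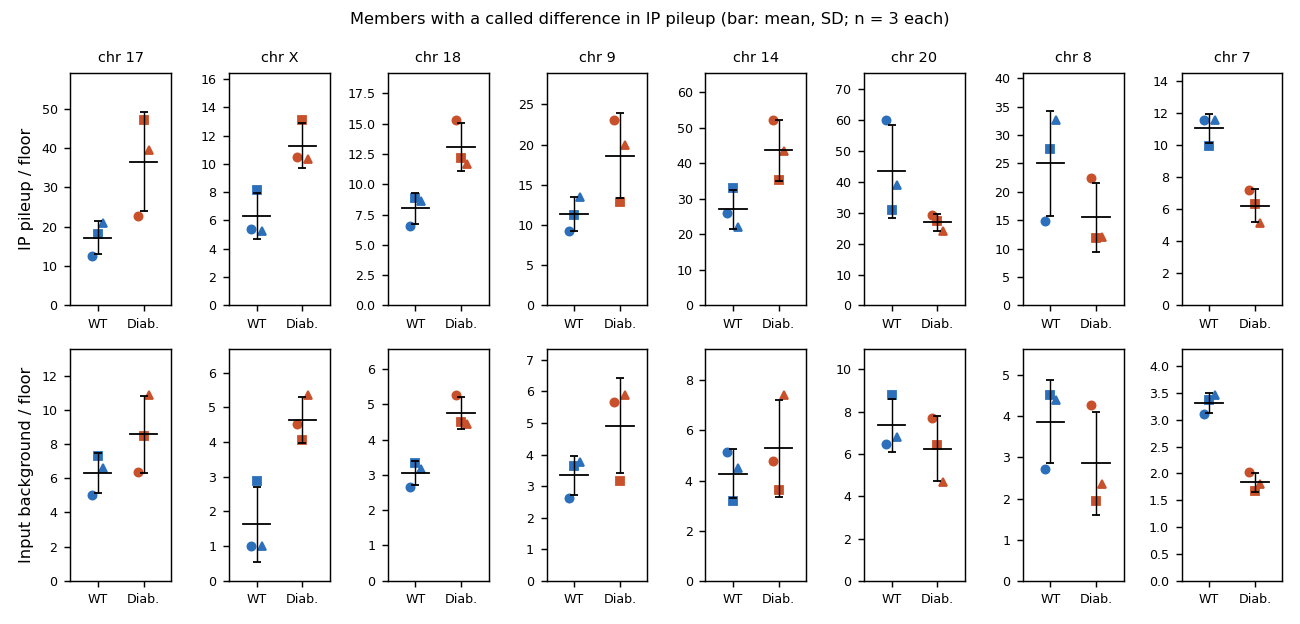
IP level (upper row) and background level (lower row), both as multiples of the floor, in each of the 6 retinas for the 8 members whose IP level was called; circles, squares and triangles are replicates 1, 2 and 3, and bars give the mean and SD of 3 animals. Panels run from the largest rise (chromosome 17) to the largest fall (chromosome 7), and the groups overlap in IP level on chromosomes 9 and 8.

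These calls depended on the scaling and on single libraries. Of 10 alternatives, the chromosome 14 member was called in 4. The chromosome 8 member was called in 3, those on chromosomes 9 and 20 in 2 each, and that on chromosome 18 in 1. For the chromosome X member it was 3 of 9. With each library centred on its median, 0 members were called higher and 1 lower, which was the chromosome 7 member. The counts that follow include the members on chromosomes 7 and X where they were called. Without WT replicate 3 the counts were 1 and 0, without Diabetic replicate 1 they were 1 and 3, without Diabetic replicate 2 they were 4 and 0, and without Diabetic replicate 3 they were 2 and 0. The test pools the spread over all regions, so a member whose 3 animals scattered widely could be called.

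Members whose IP levels did not overlap between groups were as often lower as higher in Diabetic animals. In 31 of 254 members (12.2%) all Diabetic values were above all WT values, and in 31 (12.2%) they were below. Over all 7098 regions these shares were 10.3% and 3.71%. The split moved with the scaling. With centred libraries, an alternative chosen after seeing the data, 20 members were above and 55 below, against 10.1% and 10.4% of all regions. For the background level, 12 members (4.72%) were above and 9 (3.54%) below, against 6.46% and 3.01% of the regions fitted. In IP level, 5 further members had a limma adjusted p between 0.0555 and 0.0926. Among them, chromosome 18 from 56616020 to 56616370 had 67.1, 58.8 and 77.2 in WT and 52.2, 37.3 and 47.1 in Diabetic animals (adjusted p = 0.0841), at a background level that overlapped between groups (22.8 to 35.8 and 28.7 to 32.1).

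IP and background differences of the members went in the same direction more often than not. Across the 254 members the difference in IP level and the difference in background level had a Spearman rho of 0.699 and a Pearson r of 0.711, and 190 (74.8%) had the same sign. Across the 443 other regions fitted, rho was 0.528 and 69.3% had the same sign. The points share the 6 animals and the floor by which both measures were divided, and neighbours can share windows, so these values are a description.

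**Figure D4:**
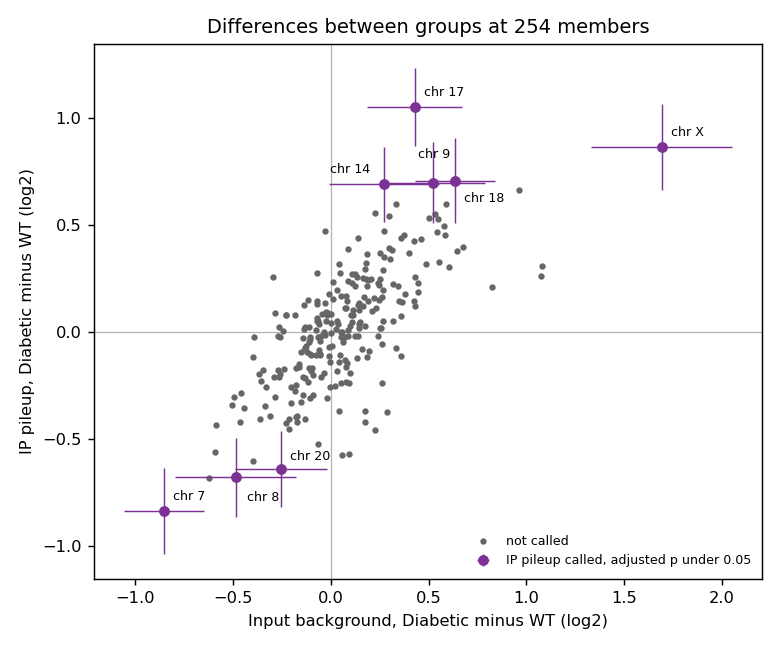
Difference in IP level against difference in background level (Diabetic minus WT, log2) for the 254 members with a region in all 6 lists; purple points with bars of 1 SE are the 8 members whose IP level was called, named by chromosome. Points run along a rising band, and the chromosome 17 member lies above it, with 1.05 in IP level and 0.43 in background.

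The rank of fold enrichment within the lists was also compared between groups. Fold enrichment was turned into a percentile among the same 7098 regions in each list, since it is the authors' value for each peak and shares the background with the rule. In 20 members (7.87%) all Diabetic percentiles lay below all WT percentiles, and in 2 (0.787%) they lay above. Over all 7098 regions the shares were 7.99% and 9.30%, so the share of members ranked lower was near that of all regions and the share ranked higher was smaller. Among the 20 were the members on chromosome 6 from 108307895 and chromosome X from 23222213, which entered the rule through the Diabetic lists alone. A higher background makes the fold enrichment lower by definition. The 2 ranked higher were over the threshold in all 6 lists. Without 1 list at a time, which makes separation easier, 26 to 51 members were lower and 6 to 20 higher. The share over all regions was not taken without 1 list, so these counts say nothing particular to members. Without Diabetic replicate 1 there were 20 higher, and without WT replicate 1 there were 14. Median percentiles of the members per list were 58.0, 43.1 and 42.8 in WT and 38.5, 45.0 and 46.2 in Diabetic animals. WT replicate 1 stood highest and Diabetic replicate 1 lowest, with the other 4 lists close together, so the groups overlapped.

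Of the 2 members ranked higher, the chromosome 17 member moved from percentiles of 2.62, 2.66 and 3.76 in WT to 12.8, 36.0 and 15.9 in Diabetic replicates. The other, on chromosome 3 from 124530535 to 124530874, had fold enrichments of 1.94, 2.09 and 2.44 in WT and 2.74, 3.46 and 2.96 in Diabetic animals, at percentiles of at most 0.592 and 7.92. Its background level was 5.34 to 6.19 and 4.86 to 6.47, nearly the same in both groups.

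The largest gaps downward were on chromosome X, from 35745737 to 35746021, with percentiles of 44.1, 43.1 and 35.8 in WT and 4.45, 21.9 and 6.18 in Diabetic animals. The IP level was 19.3 to 29.1 in WT and 15.8 to 17.7 in Diabetic animals there, and the background level overlapped. The chromosome 6 member from 108307895 and the chromosome 18 member from 59190064, both with a higher Diabetic background, also fell in rank, the second from 71.0 to 90.5 down to 39.4 to 67.0. A second chromosome X member, from 113434414 to 113434758, ranked at 81.3 to 83.8 in WT and 68.2 to 75.8 in Diabetic animals. On chromosome 5 from 165760734 to 165761573 the percentiles were 18.8 to 41.1 and 5.93 to 14.3.

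**Figure D5:**
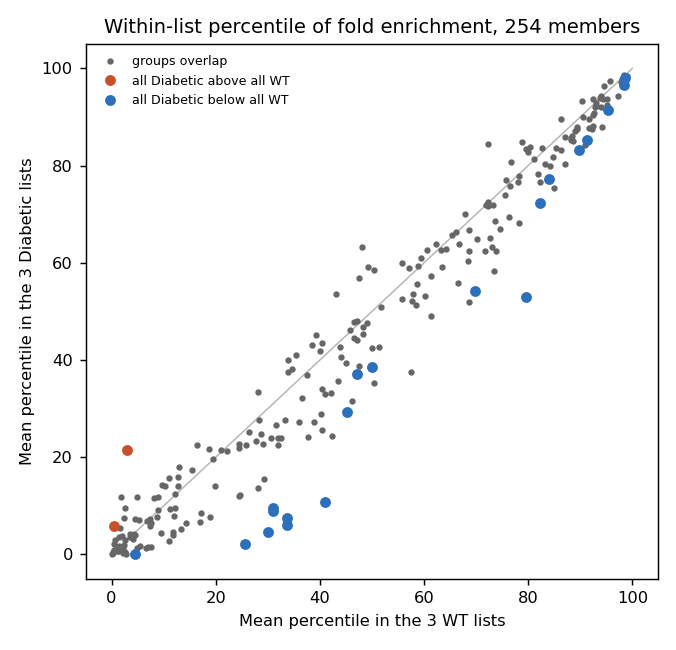
Mean percentile of fold enrichment within the 3 Diabetic lists against that within the 3 WT lists for the 254 members of all 6 lists, with the line of equality. Blue marks the 20 members with all Diabetic percentiles below all WT percentiles, orange the 2 with all above, both near the lower left corner.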

How the data were processed

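The submitters' processing notes list CASAVA, BWA (0.7.12), MACS2 (2.1.0) and fastp (0.19.11), with no role given; build and annotation are not given in the sources used here. Each list compares the IP library of 1 animal with the input of that animal and holds peaks that the authors called with MACS 2.1.0.20150420 at a q cut-off of 0.05, per the file headers. The headers also record no shifting model, extension sizes of 118 to 125 bases, duplicates kept and scaling down of the deeper library. Duplicates therefore count toward every value. The deposited pileup is a coverage signal, the deposited fold enrichment is a ratio, and the deposited −log10 p and −log10 q values, whose column names were lost to a spreadsheet error, were told apart by MACS column order and by size.

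Background was computed here as (pileup + 1) divided by fold enrichment, minus 1. Lines of 1 region were joined at the summit with the highest −log10 p, and regions overlapping by 1 base were merged. Where a list had several regions inside a merged region, the one with the highest −log10 p was used. Log2 levels were fitted with limma 3.58.1 (R 4.3.3, trended variance, Benjamini-Hochberg threshold 0.05), and the fit was tested on simulated data. Widths and summit numbers were compared with exact permutation tests over lists (Python 3.11.15). The spread measured is that between animals. In the limma fits it was drawn toward the spread of all regions of similar level. An SE or p of these fits thus does not rest on the scatter of that member alone. For the IP level the SE hardly depended on the scatter of the member itself. Tests planned for the number of members per list over the threshold or with a region are not reported, since both enter the rule. Members, lists and tests were chosen with earlier results of these data known. Regions named are the 10 with the highest background, 3 on each side of the threshold, 5 per direction with the smallest p in each fit and the largest gap in fold percentile, the 3 widest, and all absent from a group. The design reserved gene names and marker lists for a genome of the same build, and these were not used here. Alternatives were other thresholds, overlaps, scalings and summits, the replicate block and leaving out lists.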

Additional observations from a re-analysis of the deposited data

How the results depend on the processing

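The number of members was 575 with a background over 2 times the floor and 131 with 5 times, and stayed between 271 and 319 under the other 10 alternatives, among them leaving out 1 list (271 to 293). IP level calls among members (5 higher, 3 lower) became 1 and 0 with the replicate block, 0 and 1 with libraries centred on their medians, and 2 and 1 without a variance trend. Leaving out 1 library gave 1 to 5 higher and 0 to 3 lower. At an unadjusted p under 0.05 in limma, 31 of 254 members were higher and 25 lower, beside 577 and 194 of all 7098 regions. After centring, 19 members were higher and 54 lower, beside 498 and 515 of all regions. The balance of directions thus follows the scaling. All regions called numbered 48 higher and 13 lower, 22 and 4 with the block, 10 and 4 after centring, and 14 to 36 and 1 to 15 without 1 library. Members without overlap in IP level changed from 31 above and 31 below to 20 and 55 after centring. The background test, given as a description, called 0 members in each direction, and 0 to 1 higher and 0 lower without 1 library. The 1 call came without WT replicate 2. Of 211 fits of 20 single-member results under alternatives, 0 changed direction. These results were picked for their small p in the same data, so a change of direction was unlikely from the start. In IP level, 50 of these fits lost a call that the main fit had made.

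Members stayed wider than other regions by 112.4 to 123 bases without 1 list and had several summits more often by 11.2 to 12.5 percentage points; 5 lists cannot give an exact permutation p below 0.0625, so these no longer passed. Width between groups differed by -22.3 to 2.17 bases without 1 list, with 0 and 2.17 without WT replicate 3 and Diabetic replicate 1. Members ranked higher in fold enrichment numbered 10 with 2 times the floor (of 464 members in all 6 lists) and 6 to 20 without 1 list. Those ranked lower numbered 5 with 5 times the floor (of 105) and 26 to 51 without 1 list. The shares over all regions, 9.30% higher and 7.99% lower, do not depend on that threshold. Without 1 list they were not taken, so those counts are not read as particular to members. Under the replicate block, differences in members called and over the threshold kept their values of 14.7 and 17.7, and the width difference its -11.3 bases, by construction (exact permutation p = 0.5 for width, smallest possible 0.25). Same-numbered animals did not deviate together (correlations of log2 IP level -0.219, -0.0351 and 0.0418), so the numbers were not taken as pairs. The cause of these changes was not tested. Depth limits what a missing call means: over a background of 3 times the floor a region of low fold enrichment may not be called, and its value is then unknown.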
